A study of Homo sapiens with 12 samples.

Results

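Long intergenic noncoding RNAs (lincRNAs) are capped, usually spliced and polyadenylated transcripts of genes that lie between protein-coding genes and code for no known protein. Those without a functional name carry a LINC number. Of the 46931 rows of the deposited gene table, 2108 were LINC-numbered genes on placed chromosomes, and 100 of them had a count of at least 50 in at least 3 of the 12 libraries. Those 100 genes, chosen by their raw counts, are described here. The rule reads the counts themselves, so the level of these RNAs is how they were chosen and not a result. Of the 2108, 635 had a count in any library and 1473 had none.

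All libraries were made from MCF10A, an immortalised and non-tumorigenic human mammary epithelial line with wild-type genotype per the labels, and each of the 4 groups holds 3 libraries, a, b and c. In siYT_XMU, siRNA sets against YAP and TAZ were given at 11 nM and, 48 h later, fresh medium with 5 µM XMU-MP1 for 6 h. In siYT_DMSO, the same siRNA sets were followed by DMSO, the vehicle, for the same time. In siC_XMU, a control siRNA at 22 nM was followed by XMU-MP1, and in siC_DMSO by DMSO. All groups share the transfection, the change of medium and growth with insulin, hydrocortisone and EGF; the labels do not say whether 11 nM is the dose of each siRNA set or of both, nor whether libraries a, b and c came from separate cultures, so p-values measure the spread between these libraries, which may be technical.

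XMU-MP1 inhibits MST1 and MST2, the kinases at the top of the Hippo pathway. With these kinases active, LATS1 and LATS2 phosphorylate the coactivators YAP and TAZ (gene name WWTR1), which are then kept out of the nucleus; when the kinases are inactive, YAP and TAZ bind TEAD factors on DNA. In mammary and skin epithelium YAP and TAZ are known for keeping cells in a proliferative, undifferentiated state. LincRNAs are known for low abundance and for narrow expression across cell types, and many are trimmed or degraded in the nucleus by the RNA exosome. Some act on the neighbouring gene and others act elsewhere in the cell, and for most LINC-numbered genes no function is known.

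Counts are given as CPM, scaled to the library's total and by edgeR's TMM, a measure that is not corrected for length. YAP1 had 6.63, 3.81 and 5.39 CPM in siYT_XMU and 12.6, 9.09 and 7.84 CPM in siYT_DMSO, against 132, 135 and 142 CPM in siC_XMU and 201, 223 and 193 CPM in siC_DMSO. WWTR1 had 2.11, 1.24 and 0 CPM in siYT_XMU and 4.30, 4.47 and 3.66 CPM in siYT_DMSO, against 56.9, 60.3 and 56.0 CPM in siC_XMU and 34.6, 24 and 38.2 CPM in siC_DMSO. Both siRNA targets were thus low in every library labelled with their siRNA. Library siYT_XMU c stood apart by depth, with 8243351 counts in all against 25246464 to 67953633 in the other 11 libraries. There 12 of the 100 lincRNAs reached 50 counts, against 49 to 83 elsewhere. The lincRNAs together took 0.0272% of its counts, against 0.0362% to 0.0491% in the others. Of the marker lists, all 9 genes of basal mammary epithelium were present, summing to 9538–15608 CPM in siYT_XMU and 5089–13221 CPM in siYT_DMSO, against 5740–7474 CPM in siC_XMU and 6763–7998 CPM in siC_DMSO. The 9 did not move together. After knockdown in DMSO edgeR called 1 higher and 2 lower (adjusted p under 0.05), against 16.1% and 16.0% of all genes tested, with a median log2 fold change of -0.49. KRT5 had 2297, 1030 and 1282 CPM in siYT_DMSO, against 4236, 5086 and 4539 CPM in siC_DMSO. Luminal markers, among which PGR was at 0 throughout, summed to 548–1250 CPM in siYT_XMU and 835–977 CPM in siYT_DMSO, against 3048–4161 CPM in siC_XMU and 3453–3862 CPM in siC_DMSO. Leukocyte markers summed to 69.8–141 CPM in siYT_XMU and 83.7–153 CPM in siYT_DMSO, against 20.0–29.5 CPM in siC_XMU and 44.1–61.3 CPM in siC_DMSO. PTPRC, their defining gene, had 0, 0.541 and 5.59 CPM in siYT_XMU and 0, 0.0773 and 0 CPM in siYT_DMSO, and was at 0 in all 6 control siRNA libraries. Fibroblast markers ran from 11.1 to 135 CPM and endothelial markers from 0.918 to 8.49 CPM, both highest in siYT_XMU. The part of these differences in the results was not tested. In bulk RNA, fewer cells of a kind and less RNA per cell cannot be told apart.

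The 100 lincRNAs were scarce RNAs even after selection. In the authors' FPKM, fragments per kilobase scaled to depth, their median over the 12 libraries was 0.891, against 4.77 for the 13904 genes of all kinds past the same count floor; 43 of the 100 reached 1 FPKM and 0 reached 10, against 4582 of the 13904. In 77 cases the 50 counts were reached in libraries of both siRNA arms, in 14 only in knockdown libraries and in 9 only in control siRNA libraries. For the last 23 a difference between the siRNA arms is built into the way they were chosen, and their tests are given as a description. Of the genes given with fold changes below, LINC00482, LINC00520, LINC01527, LINC01605, LINC01705, LINC02188, LINC02354, LINC02560 and LINC02678 reached the floor only in knockdown libraries. LINC00052, LINC00899 and LINC01572 reached it only in control siRNA libraries. The rule can build in a difference with XMU-MP1 in the same way. LINC02818, LINC00926 and LINC02804 reached the floor only in XMU-MP1 libraries, and LINC00963 and LINC00899 only in DMSO libraries. Their XMU-MP1 tests are a description too. Just inside the floor, the third-highest count was 50 for LINC02615, 51 for LINC01357 and 54 for LINC00653 and LINC02680. Just outside it were LINC02159 with 49, LINC01521 and LINC01615 with 48 and LINC01772 with 47. A floor of 20 counts would have admitted 173 genes and one of 100 counts 68.

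Per kilobase, the most abundant lincRNAs were of kinds that differ in how they varied between groups. LINC01527 had the highest mean, 5.84 FPKM, and ran between 1e-04, the value the authors' table gives to a count of 0, and 23.1 FPKM. LINC00673, studied in melanoma as SLNCR, averaged 5.30 FPKM (0.649–9.40). LINC01503, a lincRNA described in squamous cancers as driven by p63, averaged 4.71 FPKM and was present in every library (2.73–8.6). LINC02560 averaged 4.16 FPKM, with 2.19, 8.70 and 4.15 FPKM in siYT_XMU and 13.2, 9.34 and 11.3 FPKM in siYT_DMSO, against at most 0.573 FPKM in the 6 control siRNA libraries. LINC00467, whose transcript has been reported to encode a mitochondrial micropeptide, averaged 3.74 FPKM and was at 0 counts in siYT_XMU c alone. LINC00052 averaged 3.51 FPKM, with 7.47 to 21.1 FPKM in siC_XMU and at most 3.13 FPKM elsewhere. LINC01278 (3.47 FPKM) and LINC01963 (3.39 FPKM) completed the 8 highest. Of these 8, LINC01503, LINC00467, LINC01278 and LINC01963 were called in no comparison. LINC01963 came nearest: it had 9.13, 6.90 and 5.64 CPM in siYT_DMSO and 19.1, 12.3 and 12.6 CPM in siC_DMSO, a log2 fold change of -1.03 ± 0.38 (SE; edgeR quasi-likelihood test, adjusted p = 0.0580).

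**Figure D1:**
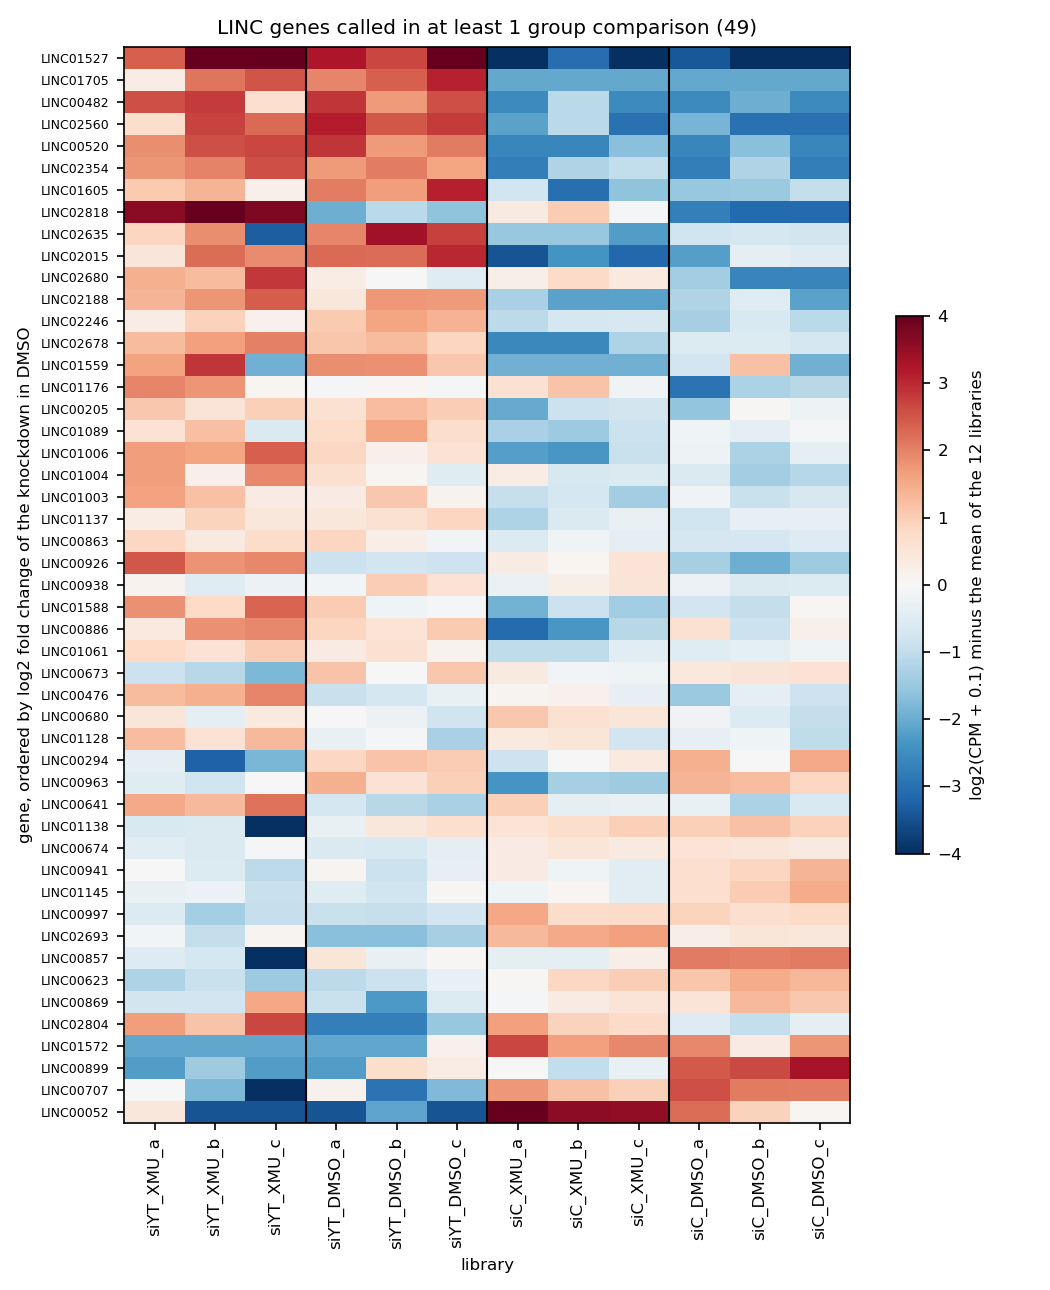
The 49 lincRNAs called in at least 1 of the 4 comparisons of groups (rows, ordered by the log2 fold change of the knockdown in DMSO) in the 12 libraries (columns), coloured by log2(CPM + 0.1) minus the gene's mean over the 12 libraries. The top rows are high in the 6 knockdown libraries and the bottom rows in the 6 control siRNA libraries, while LINC02818 and LINC00926 are highest in siYT_XMU.

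The genes are structurally diverse. Of the 100, 94 were found by symbol or Ensembl gene ID in GENCODE v29. There 72 are typed as lincRNA, 6 as transcribed unprocessed pseudogenes (LINC00674, LINC00680, LINC00869 and LINC01145 among them) and 1, LINC02693, as protein-coding. The longest annotated transcript had a median of 3 exons and 2286.5 bases, and in 15 genes that transcript had a single exon. Gene spans ran from 477 bases for LINC02560 to 384069 bases for LINC01572. Despite the name, 42 of the 100 overlapped another gene of the table, 36 on the opposite strand and 13 on the same strand. The median distance to the nearest protein-coding gene was 22516.5 bases. Counts of the same-strand overlappers LINC00294 (with TCP11L1), LINC00680 (with LINC00680-GUSBP4), LINC00467, LINC00623 and LINC01138 may be split with the partner, and LINC00623, LINC00869, LINC01138, LINC01145 and LINC02804 lie in duplicated blocks of chromosome 1 with near-identical copies; how the authors' counting treated such reads is not given in the sources used here.

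The knockdown in DMSO, siYT_DMSO against siC_DMSO, asks what loss of YAP and TAZ does to these RNAs. Here 16 lincRNAs were higher and 11 lower at an adjusted p under 0.05 in edgeR's quasi-likelihood test, out of 100 tested. Over all 18143 genes tested, 16.1% were called higher and 16.0% lower, and among the 13904 genes past the same count floor 39.3% were called either way; the lincRNAs' 27 of 100 lay below that share. Their median log2 fold change was 0.05, against 0.02 over all genes. In all 27 the libraries of the 2 groups did not overlap. The share over all genes was not computed, so here and in the later comparisons this describes the calls and adds no support to them. Of the 14 lincRNAs that reached the floor only in knockdown libraries 8 were among the higher ones, of the 9 that reached it only in control siRNA libraries 2 were among the lower ones, and the 77 that reached it in both arms gave 8 higher and 9 lower.

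The lincRNA with the widest difference was LINC01527, counted at chr1:152930040-152949249 (minus strand, GRCh38.p13). It lies inside the epidermal differentiation complex, the cluster of genes that make the proteins of the cornified envelope in skin. GENCODE v29 gives it a 2-exon RNA of 1997 bases, with exons chr1:152948986-152949210 and chr1:152930040-152931811 on GRCh38. The bases around the exon junction of that RNA are shown, with the 6 bases on each side in capitals. Reads across the junction were not examined.
LINC01527 RNA, bases 146 to 305: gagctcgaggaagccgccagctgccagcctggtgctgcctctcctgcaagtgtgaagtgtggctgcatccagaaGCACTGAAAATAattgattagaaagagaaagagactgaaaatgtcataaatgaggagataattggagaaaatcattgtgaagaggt
LINC01527 had 8.69, 44.9 and 47.9 CPM in siYT_XMU and 15.6, 10.5 and 47.5 CPM in siYT_DMSO, against 0, 0.105 and 0 CPM in siC_XMU and 0.0613, 0 and 0 CPM in siC_DMSO. All 6 knockdown libraries were far above all 6 control siRNA libraries, in which 10 counts were found in all. LINC01527 reached the floor only in knockdown libraries, so its difference is part of how it was chosen and its tests are a description. Between siYT_DMSO and siC_DMSO the log2 fold change was 10.18 ± 1.33 (SE, n = 3 each; edgeR, adjusted p = 0.000135), and between siYT_XMU and siC_XMU it was 9.82 ± 1.29 (adjusted p = 0.000143).

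The coding genes closest to LINC01527 were higher after knockdown too. Involucrin (IVL), a cornified envelope protein whose gene lies 18154 bases away, averaged 234 ± 131 CPM in siYT_XMU and 248 ± 107 CPM in siYT_DMSO, against 4.16 ± 1.44 CPM in siC_XMU and 10.0 ± 2.5 CPM in siC_DMSO (SD, n = 3 each), with log2 fold changes of 5.82 under XMU-MP1 and 4.63 in DMSO, both called. SPRR4, a small proline-rich envelope precursor at 19506 bases, averaged 2.84 ± 0.426 CPM in siYT_XMU and 1.75 ± 0.127 CPM in siYT_DMSO and was at 0 in all control siRNA libraries. SPRR1A at 34832 bases averaged 2191 ± 731 CPM in siYT_XMU and 1259 ± 488 CPM in siYT_DMSO, against 3.57 ± 1.36 CPM in siC_XMU and 1.91 ± 0.242 CPM in siC_DMSO. LCE1B, a late cornified envelope gene 116932 bases away beyond IVL, was not called in DMSO (log2 fold change 1.46, adjusted p = 0.442).

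**Figure D2:**
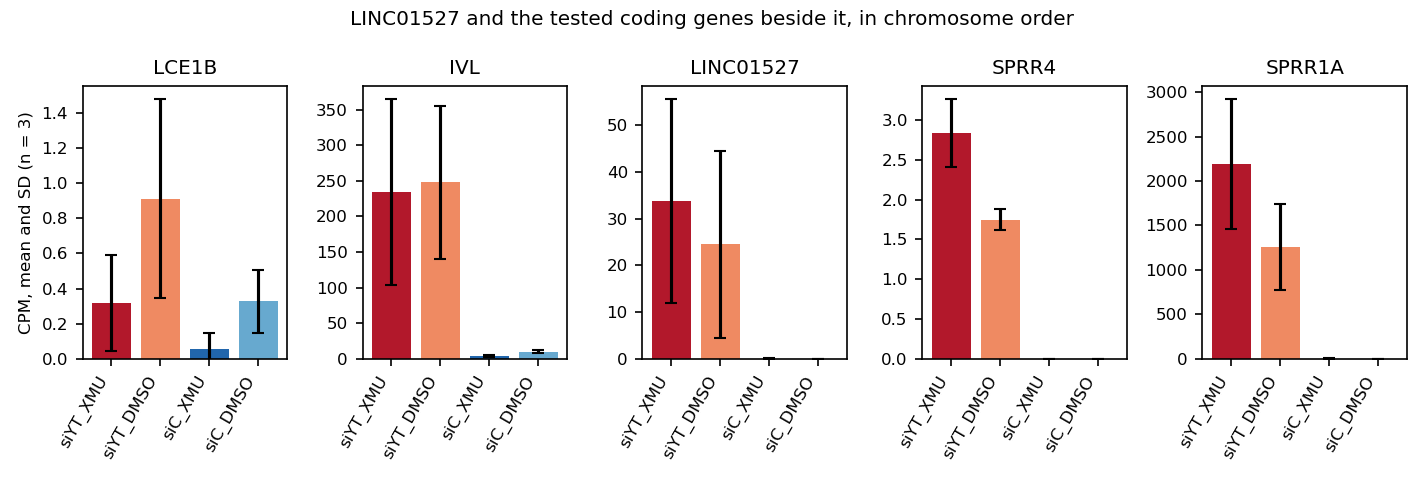
LINC01527 and the tested coding genes beside it, in chromosome order, in CPM on linear axes that differ between panels; bars are the mean of 3 libraries and error bars the SD. LINC01527, IVL, SPRR4 and SPRR1A have high bars in both knockdown groups and bars near 0 in both control siRNA groups, and LCE1B stays under 1.5 CPM throughout.

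A further set of lincRNAs was at or near 0 counts with control siRNA and measurable after knockdown, at levels far under that of LINC01527. They too reached the floor only in knockdown libraries, and their tests are a description. LINC01705 (chr1:222041704-222059407, minus strand) had 0.411, 1.72 and 2.28 CPM in siYT_XMU and 1.5, 2.09 and 3.44 CPM in siYT_DMSO, against 0 counts in all 6 control siRNA libraries. Set against a floor of 3 counts per library it was at least 56.0-fold higher in siYT_DMSO than in siC_DMSO (edgeR, adjusted p = 0.000674) and at least 27.9-fold higher in siYT_XMU than in siC_XMU (adjusted p = 0.00111). LINC00482 (chr17:81302824-81309248, minus strand) had 4.09, 1.80 and 3.39 CPM in siYT_DMSO against 0, 0.051 and 0 CPM in siC_DMSO, a log2 fold change of 7.25 ± 1.53 (adjusted p = 0.00336). Its neighbour SLC38A10, an amino acid transporter 7391 bases away, was also called higher, by 1.13 on the log2 scale. LINC00520 (chr14:55781135-55796674, minus strand) had 4.34, 1.86 and 2.47 CPM in siYT_DMSO against 0, 0.0892 and 0 CPM in siC_DMSO, a log2 fold change of 6.43 ± 1.37 (adjusted p = 0.00345). LINC02354 (chr12:47831379-47840108, plus strand), 1429 bases from the vitamin D receptor gene VDR, had 2.09, 2.67 and 1.94 CPM in siYT_DMSO against 0, 0.191 and 0 CPM in siC_DMSO, a log2 fold change of 5.04 ± 1.40 (adjusted p = 0.0160), while VDR had a log2 fold change of 0.30 (adjusted p = 0.205). LINC01605 had 3.25, 2.47 and 6.88 CPM in siYT_DMSO against 0.184, 0.191 and 0.317 CPM in siC_DMSO, a log2 fold change of 4.17 ± 1.0 (adjusted p = 0.00711). These fitted folds rest on a handful of control counts: without the 1 siC_DMSO library that held any, library b, the log2 fold change became 10.24 for LINC00482, 10.14 for LINC00520 and 9.77 for LINC02354, and all stayed called.

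LINC02560 stood out among these low genes for its level per kilobase. It is the shortest gene of the set, a single exon of 459 bases in GENCODE at chr19:58400203-58400679 (plus strand), between ZNF584, 793 bases away, and RNF225, 3124 bases away. Its promoter, 250 bases before to 50 after the start (RefSeq, GRCh38.p14, chr19:58399953-58400252, plus strand), is shown because gene and promoter are compact; it holds none of the 3 motifs searched below, so no base is in capitals.
LINC02560 promoter: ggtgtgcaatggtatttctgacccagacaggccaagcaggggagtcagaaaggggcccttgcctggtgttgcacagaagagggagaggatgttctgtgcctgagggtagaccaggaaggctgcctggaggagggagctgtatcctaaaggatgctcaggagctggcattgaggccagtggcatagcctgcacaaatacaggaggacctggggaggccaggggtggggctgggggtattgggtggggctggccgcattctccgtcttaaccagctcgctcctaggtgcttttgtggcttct
LINC02560 had 1.20, 5.08 and 3.73 CPM in siYT_XMU and 6.96, 4.33 and 5.44 CPM in siYT_DMSO, against 0.0802, 0.279 and 0 CPM in siC_XMU and 0.123, 0 and 0 CPM in siC_DMSO. No knockdown library overlapped a control siRNA library. The log2 fold change was 7.07 ± 1.47 in DMSO (edgeR, adjusted p = 0.00308; 11.12 without siC_DMSO a, the only library of that group with counts) and 4.78 ± 1.32 under XMU-MP1 (adjusted p = 0.0142, and 0.0553 without siC_XMU a). RNF225, which encodes a RING finger protein, was called higher in both settings, by 5.38 and 6.23 on the log2 scale, whereas ZNF584 was not called in DMSO and was called lower under XMU-MP1, with a log2 fold change of -1.06.

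LINC02015 and LINC02818 were higher after knockdown. LINC02015 was also present in both control siRNA groups, whereas LINC02818 was present in siC_XMU and near 0 in siC_DMSO. LINC02015 (chr3:177816865-177899224, plus strand) had 3.90, 13.5 and 10.6 CPM in siYT_XMU and 13.6, 13.3 and 23.2 CPM in siYT_DMSO, against 0.160, 0.453 and 0.228 CPM in siC_XMU and 0.521, 2.10 and 1.93 CPM in siC_DMSO. The log2 fold change was 3.46 ± 0.63 in DMSO (edgeR, adjusted p = 0.00126) and 5.04 ± 0.69 under XMU-MP1 (adjusted p = 0.000194). LINC02818, which is described with XMU-MP1 below, had 30 counts in siYT_DMSO against 2 in siC_DMSO, a ratio of 23.8 after TMM scaling of the totals, with an exact counting interval of 6.05 to 206.

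**Figure D3:**
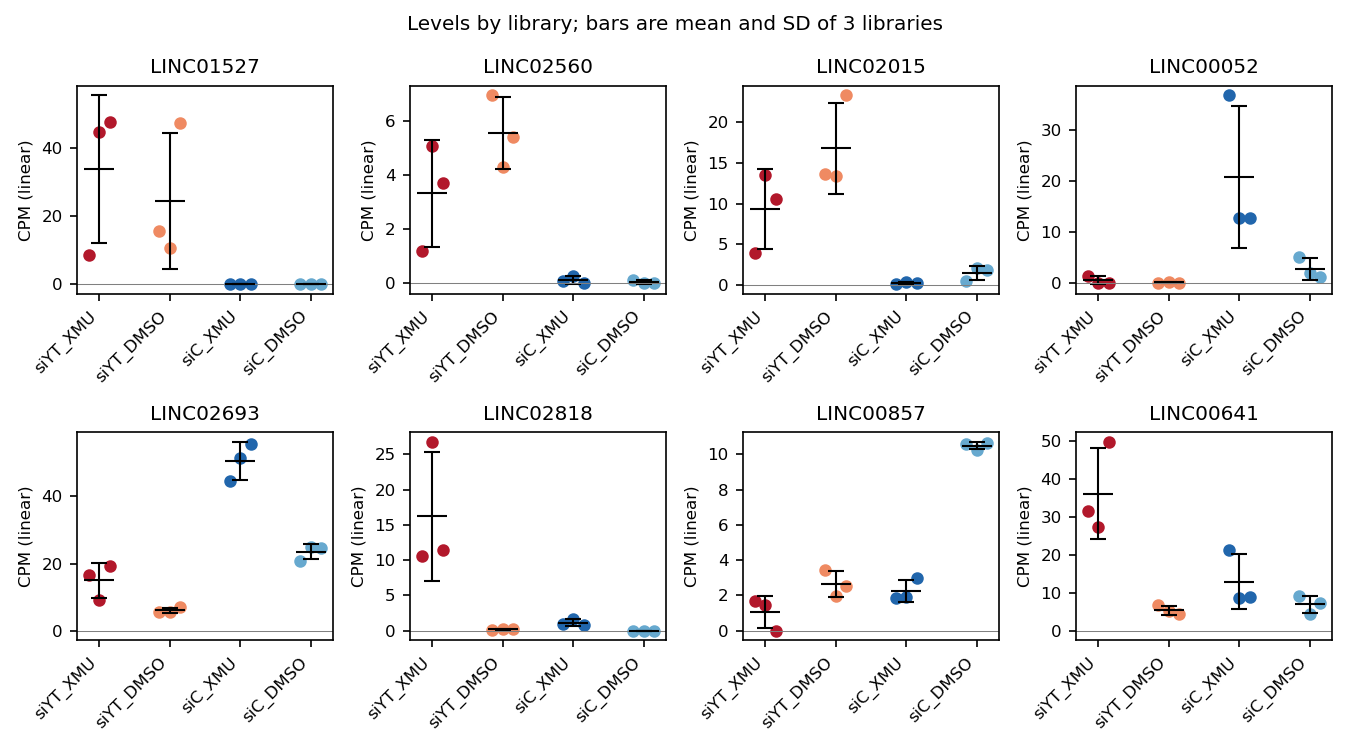
CPM of 8 lincRNAs on linear axes, 1 point per library, with the mean and SD of each group of 3 as bars. LINC01527, LINC02560 and LINC02015 are high in both knockdown groups, LINC00052 in siC_XMU (12.7 to 36.8 CPM), LINC02693 in siC_XMU, LINC02818 and LINC00641 in siYT_XMU and LINC00857 in siC_DMSO (10.3 to 10.6 CPM).

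The lincRNAs lower after knockdown had been expressed in the control cells, and most fell several-fold. The widest difference was in LINC00052, a lincRNA first studied in breast cancer cells, at chr15:87576929-87579686 (plus strand). Its 3-exon RNA of 1966 bases is shown across the first junction, with exons chr15:87576929-87577047 and chr15:87577710-87577764 and the 6 bases on each side in capitals.
LINC00052 RNA, bases 40 to 199: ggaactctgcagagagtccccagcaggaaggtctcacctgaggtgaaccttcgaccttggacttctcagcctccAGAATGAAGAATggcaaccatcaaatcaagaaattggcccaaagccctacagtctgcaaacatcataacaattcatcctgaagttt
LINC00052 had 1.38, 0 and 0 CPM in siYT_XMU and 0, 0.155 and 0 CPM in siYT_DMSO, against 36.8, 12.8 and 12.7 CPM in siC_XMU and 5.01, 1.95 and 1.05 CPM in siC_DMSO. The siC_XMU libraries were the highest and did not overlap siC_DMSO, but that comparison gave no call. LINC00052 reached the floor only in control siRNA libraries, so its knockdown tests are a description. In DMSO the knockdown mean was 51.7-fold lower, with a log2 fold change of -5.48 ± 1.53 (edgeR, adjusted p = 0.0165); the call was lost without siC_DMSO a (adjusted p = 0.0520), siYT_DMSO a (0.0550) or siYT_DMSO c (0.0618), and without siYT_DMSO b, the one library of its group with counts, the log2 fold change was -10.10. Under XMU-MP1 the mean was 45.2-fold lower, with a log2 fold change of -5.25 ± 1.41 (adjusted p = 0.0124), and -13.10 without siYT_XMU a. The nearest coding gene, NTRK3, lies 280063 bases away and was too low to test.

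Among the lower lincRNAs with more counts were LINC02693 and LINC00623. LINC02693 (chr17:21528310-21551678, minus strand), the gene typed as protein-coding in GENCODE v29, had 16.5, 9.24 and 19.3 CPM in siYT_XMU and 5.59, 5.53 and 7.01 CPM in siYT_DMSO, against 44.6, 51.5 and 55.7 CPM in siC_XMU and 20.9, 25 and 24.5 CPM in siC_DMSO. It was 3.89-fold lower after knockdown in DMSO (log2 fold change -1.96 ± 0.26, edgeR, adjusted p = 0.000153) and 3.37-fold lower under XMU-MP1 (-1.77 ± 0.26, adjusted p = 0.000302). LINC00623 (chr1:120912238-120955811, plus strand) averaged 2.02 ± 0.415 CPM in siYT_XMU and 2.83 ± 0.828 CPM in siYT_DMSO, against 7.46 ± 2.36 CPM in siC_XMU and 11.9 ± 1.59 CPM in siC_DMSO (SD, n = 3 each), with log2 fold changes of -1.85 ± 0.35 (adjusted p = 0.00176) under XMU-MP1 and -2.06 ± 0.35 (adjusted p = 0.000789) in DMSO. Both calls of both genes held when any 1 library was left out. LINC00997 on chromosome 7 was lower in both settings too, by log2 fold changes of -2.04 under XMU-MP1 (adjusted p = 0.00125) and -1.69 in DMSO (adjusted p = 0.00351). LINC00674 fell to 15.2 ± 1.56 CPM in siYT_DMSO, against 29.9 ± 1.84 CPM in siC_DMSO, a log2 fold change of -0.98 ± 0.19 (adjusted p = 0.00177).

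LINC00707, LINC00857, LINC00899, LINC00869 and LINC01145 were lower in DMSO, and none of them was called under XMU-MP1. LINC00707 (chr10:6779598-6842906, plus strand) had 1.96, 0.135 and 0.430 CPM in siYT_DMSO against 10.8, 7.56 and 7.36 CPM in siC_DMSO, a log2 fold change of -3.40 ± 0.97 (edgeR, adjusted p = 0.0178); the call was lost without siC_DMSO a (0.0517), siYT_DMSO b (0.0527) or siYT_DMSO c (0.0720). LINC00857 (chr10:80207710-80219657, plus strand), a lincRNA linked to growth of lung cancer cells, had 3.46, 1.99 and 2.53 CPM in siYT_DMSO against 10.6, 10.3 and 10.6 CPM in siC_DMSO, a log2 fold change of -1.98 ± 0.62 (adjusted p = 0.0285). Leaving out any 1 of the 6 libraries of these groups took its adjusted p above the threshold (0.0502 to 0.106). LINC00899 had 0, 0.677 and 0.480 CPM in siYT_DMSO against 2.5, 2.87 and 4.59 CPM in siC_DMSO, a log2 fold change of -3.06 ± 1.05 (adjusted p = 0.0436). That call was lost without any 1 of the siC_DMSO, siC_XMU or siYT_DMSO libraries (0.0540 to 0.139). LINC00869 had a log2 fold change of -2.15 ± 0.69 (adjusted p = 0.0314), lost without siC_DMSO b (0.0897), siC_DMSO c (0.0739), siYT_DMSO a (0.0692) or siYT_DMSO b (0.106). LINC01145 averaged 3.95 ± 1.23 CPM in siYT_DMSO against 11.0 ± 3.19 CPM in siC_DMSO, a log2 fold change of -1.48 ± 0.35 (adjusted p = 0.00677) that no left-out library ended.

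Under XMU-MP1, siYT_XMU against siC_XMU, the knockdown gave more higher than lower lincRNAs: 27 were called higher and 8 lower, against 17.7% higher and 18.6% lower over all genes tested and 42.8% either way among genes past the same floor. The median log2 fold change was 0.35 over the lincRNAs and 0.04 over all genes. The groups did not overlap for 32 of the 35. Of the 14 lincRNAs that reached the floor only after knockdown 10 were higher, and of the 77 that reached it in both arms 17 were higher and 6 lower. Between the 2 knockdown comparisons, which share no library, 14 lincRNAs were higher in both, 5 lower in both, and 0 were called in opposite directions; 13 were higher and 3 lower under XMU-MP1 only by the threshold, and 2 were higher and 6 lower in DMSO only. Such differences in passing were tested by the interaction given below. How many of all genes tested were called alike in both was not counted. The 14 include lincRNAs that reached the floor only in knockdown libraries, such as LINC01527.

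LINC02188 and LINC02678 were called higher in this setting and not in DMSO. LINC02188 on chromosome 16 had 1.03, 1.39 and 2.28 CPM in siYT_XMU against 0.0802, 0 and 0 CPM in siC_XMU, a log2 fold change of 5.81 ± 1.53 (edgeR, adjusted p = 0.0112; 9.34 without siC_XMU a), and 3.35 in DMSO with an adjusted p of 0.0709. LINC02678 (chr10:5607604-5610446, minus strand) had 1.32, 1.76 and 2.28 CPM in siYT_XMU against 0, 0 and 0.152 CPM in siC_XMU, a log2 fold change of 5.00 ± 1.16 (adjusted p = 0.00565; 9.46 without siC_XMU c). In DMSO it had 1.17, 1.33 and 0.976 CPM in siYT_DMSO against 0.306, 0.306 and 0.262 CPM in siC_DMSO, groups that did not overlap, with an adjusted p of 0.154. CALML5, a calmodulin-like protein of differentiating keratinocytes 108034 bases away, was higher by 9.26 under XMU-MP1 and 8.52 in DMSO on the log2 scale. LINC00482, LINC00520, LINC02354 and LINC01605 (chr8:37406464-37521386, minus strand) were called here as in DMSO, with log2 fold changes of 5.52 ± 1.39 (adjusted p = 0.00890; 10.13 without siC_XMU b), 6.47 ± 1.38 (adjusted p = 0.00348; 10.27 without siC_XMU c), 4.26 (adjusted p = 0.0275) and 3.04 (adjusted p = 0.0290). The LINC02354 call was lost without siC_XMU a (0.0635), b (0.0732) or c (0.0599), and the LINC01605 call without siC_XMU c (0.0933), siYT_XMU a (0.0537) or siYT_XMU b (0.0724), or with these 2 groups fitted alone (0.108). On the lower side, LINC01572 had 0 counts in all 3 siYT_XMU libraries against 2.61, 1.22 and 1.5 CPM in siC_XMU, at least 6.94-fold lower with a floor of 3 counts per library (adjusted p = 0.00957). LINC01138 had 1.85, 1.88 and 0 CPM in siYT_XMU against 4.17, 4.67 and 5.58 CPM in siC_XMU, a log2 fold change of -1.80 (adjusted p = 0.0492); leaving out any 1 library but siYT_XMU c took it above the threshold (0.0558 to 0.121), as did fitting these 2 groups alone (0.138), and without siYT_XMU c it was -1.37 and still called.

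**Figure D4:**
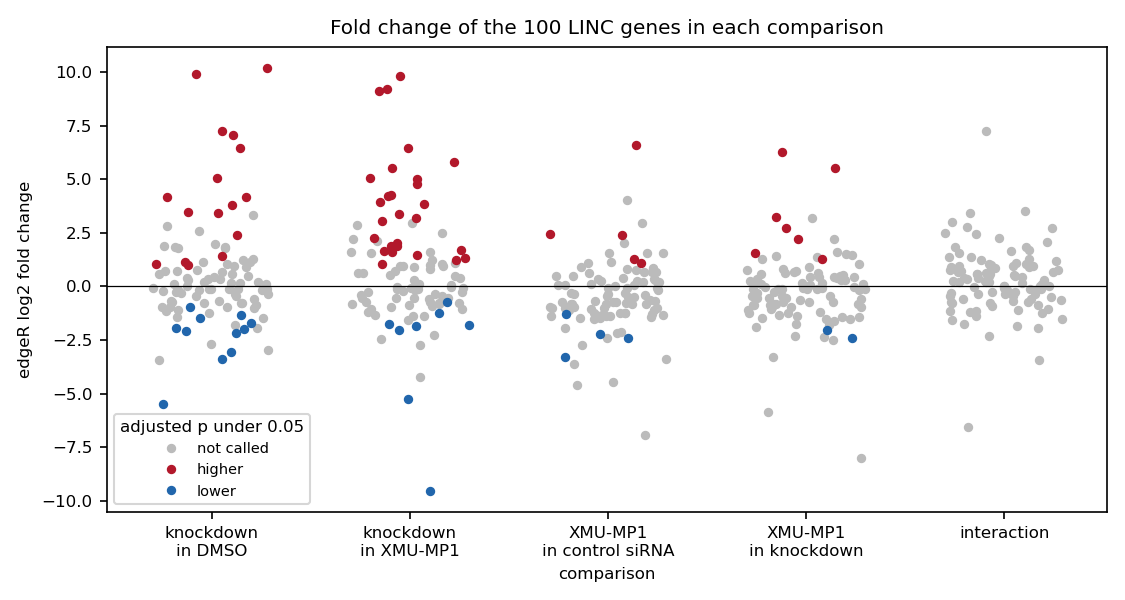
edgeR log2 fold change of the 100 lincRNAs in each of the 4 comparisons of groups and in the interaction, 1 point per gene with sideways jitter, coloured by call at an adjusted p under 0.05. The 2 knockdown comparisons hold 27 and 35 coloured points, the 2 XMU-MP1 comparisons 9 each and the interaction 0.

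With control siRNA, 6 h of XMU-MP1 (siC_XMU against siC_DMSO) left most lincRNAs without a call: 5 were higher and 4 lower, against 4.0% higher and 5.26% lower over all genes tested and 11.5% either way among genes past the same floor. The median log2 fold change was -0.65 over the lincRNAs and -0.02 over all genes. The 9 called genes were LINC02818, LINC01176, LINC00926, LINC00680 and LINC02693 on the higher side and LINC00963, LINC02015, LINC00857 and LINC01145 on the lower side, and in all 9 the groups did not overlap. Among them, LINC02818 and LINC00926 reached the floor only in XMU-MP1 libraries and LINC00963 only in DMSO libraries.

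LINC02818 had the widest response. It reached the floor only in XMU-MP1 libraries, so its difference with XMU-MP1 is part of how it was chosen and those tests are a description. The counted RefSeq gene lies at chr1:179820139-179836180 (minus strand). GENCODE v29 gives a 2-exon RNA of 353 bases, whose second exon stops short of the far end of the counted gene. Its first exon (chr1:179835995-179836124) and its second (chr1:179829609-179829831) meet at the bases in capitals.
LINC02818 RNA, bases 51 to 210: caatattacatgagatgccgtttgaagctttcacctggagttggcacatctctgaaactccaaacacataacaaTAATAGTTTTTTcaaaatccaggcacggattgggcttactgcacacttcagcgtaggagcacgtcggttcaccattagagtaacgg
LINC02818 had 10.5, 26.8 and 11.4 CPM in siYT_XMU against 0.125, 0.309 and 0.182 CPM in siYT_DMSO, and 1.0, 1.66 and 0.743 CPM in siC_XMU against 0.0306, 0 and 0 CPM in siC_DMSO. Every XMU-MP1 library was above every DMSO library, and within each drug setting every knockdown library was above every control siRNA library. XMU-MP1 with control siRNA gave 194 counts against 2, a ratio of 121 after TMM scaling of the totals, with an exact counting interval of 33.1 to 1008 and a log2 fold change of 6.58 ± 0.88 (edgeR, adjusted p = 0.00139). XMU-MP1 after knockdown gave a 79.0-fold higher mean and a log2 fold change of 6.25 ± 0.75 (adjusted p = 0.000456). The knockdown itself gave log2 fold changes of 3.84 ± 0.66 under XMU-MP1 (adjusted p = 0.000850) and 4.17 ± 0.90 in DMSO (adjusted p = 0.00381; 6.42 without siC_DMSO a, the only library of that group with counts). LINC02818 was one of 2 lincRNAs called in all 4 comparisons of groups, the other being LINC02693, and its calls held whichever library was left out. Its nearest coding gene, TOR1AIP2, 3796 bases away, was called in none of them.

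LINC02693 and LINC00926 were the other lincRNAs higher with XMU-MP1 in both siRNA settings. LINC00926 reached the floor only in XMU-MP1 libraries, so its XMU-MP1 tests are a description. LINC02693, lower after knockdown as given above, was 2.15-fold higher in siC_XMU than in siC_DMSO (log2 fold change 1.11 ± 0.25, edgeR, adjusted p = 0.0191) and 2.48-fold higher in siYT_XMU than in siYT_DMSO (1.30 ± 0.26, adjusted p = 0.00763, and 0.0899 with these 2 groups fitted alone). The first of these calls was lost without siC_DMSO a (0.0838), b (0.0652) or c (0.0671) or siC_XMU b (0.0758) or c (0.0723). LINC00926 on chromosome 15 had 4.28, 2.67 and 2.90 CPM in siYT_XMU against 0.334, 0.367 and 0.347 CPM in siYT_DMSO, and 0.902, 0.732 and 1.05 CPM in siC_XMU against 0.214, 0.102 and 0.193 CPM in siC_DMSO. Its log2 fold change with XMU-MP1 was 3.23 ± 0.53 after knockdown (adjusted p = 0.00276) and 2.38 ± 0.52 with control siRNA (adjusted p = 0.0150), the second of which was lost without siC_DMSO b (0.0856), siC_DMSO c (0.0614) or siC_XMU c (0.0565). LINC01176 averaged 2.18 ± 0.963 CPM in siC_XMU against 0.393 ± 0.263 CPM in siC_DMSO (adjusted p = 0.0486), and LINC00680 averaged 9.66 ± 2.11 CPM against 3.99 ± 1.12 CPM (adjusted p = 0.0464). These calls lay at the threshold: for LINC01176 each left-out library but siYT_XMU c ended it (0.0571 to 0.181), and for LINC00680 each but siYT_XMU b and c (0.0528 to 0.184).

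Of the lincRNAs lower with XMU-MP1, LINC00963 was the one whose call no left-out library ended. It reached the floor only in DMSO libraries, so being lower with XMU-MP1 is part of how it was chosen and its XMU-MP1 tests are a description. This lincRNA, first described in prostate cancer, lies at chr9:129488660-129513686 (plus strand). Its promoter (RefSeq, GRCh38.p14, chr9:129488410-129488709) is shown because it holds an AP-1 motif, TGAGTCA, in capitals, which begins 19 bases after the start base.
LINC00963 promoter: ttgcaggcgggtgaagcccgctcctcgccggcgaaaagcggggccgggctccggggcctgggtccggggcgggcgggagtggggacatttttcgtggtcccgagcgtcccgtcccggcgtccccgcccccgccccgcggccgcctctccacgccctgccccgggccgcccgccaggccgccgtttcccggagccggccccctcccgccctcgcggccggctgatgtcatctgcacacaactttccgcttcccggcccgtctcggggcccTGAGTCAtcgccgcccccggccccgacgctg
LINC00963 had 0.0802, 0.261 and 0.243 CPM in siC_XMU against 2.25, 2.05 and 1.52 CPM in siC_DMSO, 9.96-fold lower (log2 fold change -3.29 ± 0.61, edgeR, adjusted p = 0.00686). After knockdown it had 0.558, 0.425 and 0.829 CPM in siYT_XMU against 2.38, 1.26 and 1.65 CPM in siYT_DMSO, groups that did not overlap but gave no call. LINC02015, higher after knockdown, was lower with XMU-MP1 in the control cells, with a log2 fold change of -2.42 ± 0.63 (adjusted p = 0.0329) that was lost without siC_DMSO b (0.113) or c (0.104) or any siC_XMU library (0.0570 to 0.121). LINC00857 had 1.88, 1.90 and 3.00 CPM in siC_XMU against 10.6, 10.3 and 10.6 CPM in siC_DMSO, a log2 fold change of -2.21 ± 0.62 (adjusted p = 0.0470); each left-out library but siYT_XMU b and c took it above the threshold (0.0510 to 0.176). LINC01145 averaged 4.59 ± 0.805 CPM in siC_XMU against 11.0 ± 3.19 CPM in siC_DMSO (log2 fold change -1.27, adjusted p = 0.0429), and 9 of the 12 libraries, when left out, ended the call (0.0507 to 0.198), all but siYT_DMSO c, siYT_XMU b and siYT_XMU c. LINC02015, LINC00857 and LINC01145 differ from siC_DMSO in the knockdown comparison too, and both comparisons read the same 3 siC_DMSO libraries.

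After knockdown, XMU-MP1 (siYT_XMU against siYT_DMSO) gave 7 higher and 2 lower lincRNAs, against 4.19% higher and 7.92% lower over all genes tested and 14.4% either way among genes past the same floor. The median log2 fold change was -0.11 over the lincRNAs and 0.02 over all genes. In all 9 the groups did not overlap. Beside LINC02818, LINC02693 and LINC00926, the higher ones were LINC02804, LINC00641, LINC00476 and LINC01128, and the lower ones LINC00294 and LINC00673. LINC02804, like LINC02818 and LINC00926, reached the floor only in XMU-MP1 libraries, and its test is a description. LINC00641 (chr14:21200079-21206900, minus strand), 2236 bases from HNRNPC, had 31.5, 27.2 and 49.7 CPM in siYT_XMU against 6.71, 5.10 and 4.45 CPM in siYT_DMSO, a log2 fold change of 2.73 ± 0.42 (edgeR, adjusted p = 0.00194). LINC00476, which overlaps ERCC6L2 on the opposite strand, had 8.25, 9.09 and 13.3 CPM in siYT_XMU against 1.75, 2.01 and 2.75 CPM in siYT_DMSO, a log2 fold change of 2.22 ± 0.40 (adjusted p = 0.00450). LINC02804 had 2.02, 1.35 and 4.14 CPM in siYT_XMU against 0, 0 and 0.132 CPM in siYT_DMSO, a log2 fold change of 5.52 ± 1.12 (adjusted p = 0.00816, and 0.0623 with these 2 groups fitted alone; 9.94 without siYT_DMSO c). LINC01128 averaged 22.8 ± 5.73 CPM in siYT_XMU against 7.83 ± 3.10 CPM in siYT_DMSO (log2 fold change 1.54, adjusted p = 0.0327), a call lost without siYT_DMSO a (0.0696) or c (0.120) or siYT_XMU a (0.0797) or c (0.0604), or with these 2 groups fitted alone (0.0731).

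LINC00673 was the lincRNA lower with XMU-MP1 after knockdown whose call held throughout. It lies at chr17:72403322-72592804 (minus strand), between SLC39A11, 53145 bases away, and SOX9, a transcription factor of epithelial progenitors 276906 bases away. Its promoter (RefSeq, GRCh38.p14, chr17:72592755-72593054, minus strand) is shown because it was one of the few with the TEAD motif, GGAATG, in capitals, which begins 237 bases before the start.
LINC00673 promoter: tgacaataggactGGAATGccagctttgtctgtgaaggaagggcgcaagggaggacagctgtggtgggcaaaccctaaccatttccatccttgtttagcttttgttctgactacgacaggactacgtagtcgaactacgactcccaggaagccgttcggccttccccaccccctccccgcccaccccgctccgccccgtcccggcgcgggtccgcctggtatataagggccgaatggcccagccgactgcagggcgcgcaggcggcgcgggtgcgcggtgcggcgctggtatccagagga
LINC00673 had 6.43, 5.47 and 3.31 CPM in siYT_XMU and 26.1, 12 and 24.9 CPM in siYT_DMSO, against 15.2, 11.0 and 10.5 CPM in siC_XMU and 16.0, 16.9 and 17.6 CPM in siC_DMSO. The siYT_XMU libraries were below all others. The log2 fold change with XMU-MP1 after knockdown was -2.01 ± 0.34 (edgeR, adjusted p = 0.00292), that of the knockdown under XMU-MP1 was -1.24 ± 0.33 (adjusted p = 0.0118), and that of the knockdown in DMSO was 0.32 (adjusted p = 0.502). SOX9 was called lower with XMU-MP1 in both siRNA settings, with log2 fold changes of -1.97 after knockdown and -1.07 with control siRNA, and higher after knockdown in DMSO, by 1.33. LINC00294 had 5.14, 0.638 and 1.86 CPM in siYT_XMU against 12.2, 15.2 and 13.8 CPM in siYT_DMSO, a log2 fold change of -2.40 (adjusted p = 0.0346) that was lost without siC_XMU b (0.0519), any siYT_DMSO library (0.0603 to 0.0852) or siYT_XMU b (0.0572) or c (0.0763), or with these 2 groups fitted alone (0.0929), and was -3.71 without siYT_XMU a.

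Whether XMU-MP1 acted differently after knockdown was tested by the interaction, the difference between the 2 XMU-MP1 effects. It was called for 0 of the 100 lincRNAs by edgeR, against 2.59% of all genes tested (0.86% higher, 1.73% lower) and 3.25% of genes past the same floor; 14 lincRNAs had an unadjusted p under 0.05, and DESeq2 called 6 higher and 1 lower. The smallest adjusted p was that of LINC00673, with a log2 difference of -1.55 (adjusted p = 0.0921), followed among the named genes by LINC00641 with 1.83 (adjusted p = 0.104). Across the 2 XMU-MP1 comparisons, which share no library, 3 lincRNAs were higher in both, 0 were lower in both and 0 were called in opposite directions. Of the 3, LINC02818 and LINC00926 reached the floor only in XMU-MP1 libraries. Over the 4 comparisons of groups 51 of the 100 were called in none, 24 in 1, 21 in 2, 2 in 3 and 2 in all 4. Neither these counts nor those of shared calls were made for all genes. The group with the highest mean was siYT_XMU for 25 lincRNAs, siYT_DMSO for 25, siC_XMU for 15 and siC_DMSO for 35.

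LincRNAs often share a promoter region or chromatin with a coding neighbour, and the nearest tested coding gene of each was therefore read in the same fit. Of the neighbours of the 16 lincRNAs higher after knockdown in DMSO, 5 were higher, 1 lower and 10 not called, and of the neighbours of the 11 lower ones 1 was higher, 3 lower and 7 not called. Over all 100 pairs 19 neighbours were higher, 16 lower and 65 not called. Under XMU-MP1, of the neighbours of the 27 lincRNAs higher after knockdown 5 were higher, 8 lower and 14 not called, and of those of the 8 lower ones 1 was higher, 1 lower and 6 not called, against 15 higher, 21 lower and 64 not called over all 100 pairs. Pearson's r between the log2 fold changes of lincRNA and neighbour over the 100 pairs was 0.24 for the knockdown in DMSO and 0.16 for the knockdown under XMU-MP1, as a description of genes measured in the same libraries. In 9 pairs the lincRNA and the coding gene start within 2000 bases of each other on opposite strands, and there r was 0.85 in DMSO and 0.72 under XMU-MP1 over n = 9 pairs. LINC01137 and ZC3H12A, an RNase of inflammatory mRNAs, start 75 bases apart and had log2 fold changes of 1.13, called, and 0.58, not called, in DMSO. LINC00205 and POFUT2, a protein fucosyltransferase, start 138 bases apart and had 1.42, called, and 0.23, not called. LINC01184 and the ion transporter gene SLC12A2, 591 bases apart, had -0.27, not called, and -1.43, called. For XMU-MP1 after knockdown r was 0.16 over the 100 pairs and 0.60 over the 9, and for XMU-MP1 with control siRNA it was 0.05 over both.

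**Figure D5:**
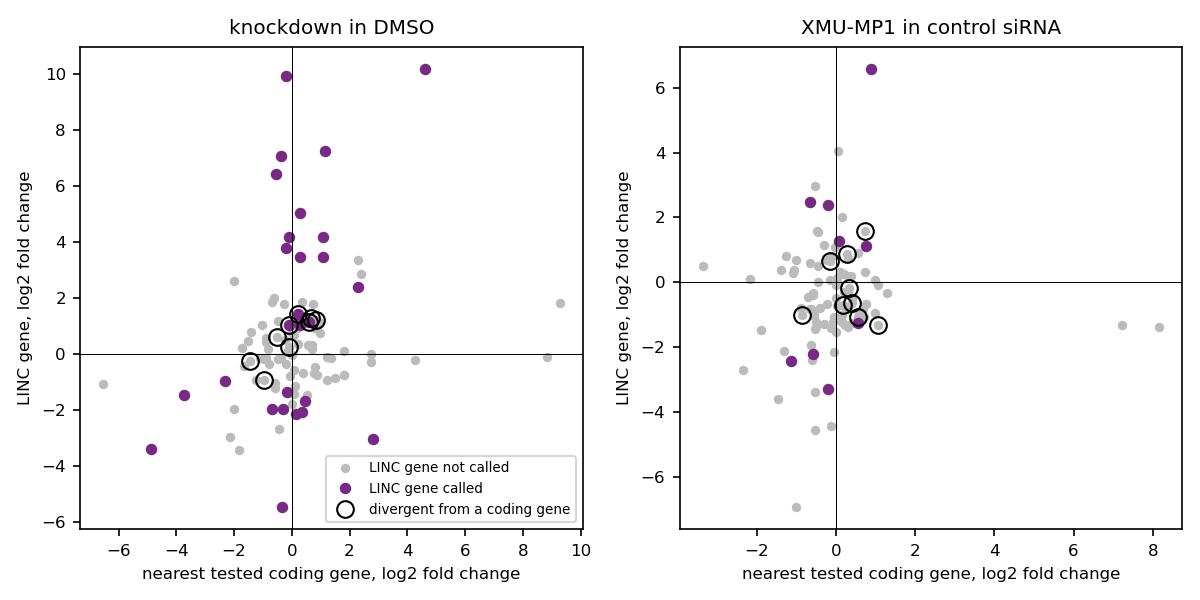
Log2 fold change of the lincRNA against that of its nearest tested coding gene, 1 point per pair, for the knockdown in DMSO (left) and XMU-MP1 with control siRNA (right); filled colour marks a called lincRNA and a ring the 9 pairs that start within 2000 bases on opposite strands. On the left the ringed pairs lie along a line (r of 0.85) and all 100 pairs scatter (r of 0.24), and on the right neither shows a line (r of 0.05 each).

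Long noncoding RNAs with functional names, which the LINC rule leaves out, were read as a list of 55, of which 45 were tested. After knockdown in DMSO 8 of the 45 were higher and 11 lower, against 16.1% higher and 16.0% lower over all genes tested, with a median log2 fold change of -0.29, against 0.02 over all genes. The higher ones were TINCR, which stabilises differentiation mRNAs in epidermis (log2 fold change 6.49), MIR31HG (4.79), LUCAT1 (3.91), the nuclear speckle RNA MALAT1 (3.24), MIR22HG (2.71), the paraspeckle RNA NEAT1 (2.09), NORAD (1.96) and TUG1 (1.12). The lower ones included CYTOR (-2.87), MIR4435-2HG (-2.63), the snoRNA hosts SNHG17 (-1.98) and SNHG1 (-1.90), UCA1 (-1.54) and DANCR (-1.21), an RNA known for holding back epidermal differentiation. Under XMU-MP1 8 were higher and 6 lower after knockdown, against 17.7% and 18.6% over all genes. XMU-MP1 with control siRNA (4.0% higher and 5.26% lower over all genes) gave 0 higher and 2 lower, CCAT1 (-4.40) and MIR100HG (-2.04), and XMU-MP1 after knockdown (4.19% higher and 7.92% lower over all genes) gave 3 higher, KCNQ1OT1 (3.55), SNHG12 (2.01) and SNHG1 (1.46), and 1 lower, MIR100HG (-1.32). Of 7 lincRNAs of the set that have been described in keratinocytes or squamous cells, LINC01527 and LINC00520 were higher after knockdown in DMSO and LINC00707 and LINC00941 lower, against the 16.1% and 16.0% of all genes. Under XMU-MP1 2 of the 7, again LINC01527 and LINC00520, were higher after knockdown and 0 lower, and neither XMU-MP1 comparison called any of the 7. Both of these reached the floor only in knockdown libraries, so their being higher is part of how they were chosen and is a description. LINC00941, reported to hold back keratinocyte differentiation, averaged 2.14 ± 0.733 CPM in siYT_DMSO against 5.43 ± 1.44 CPM in siC_DMSO, a log2 fold change of -1.35 ± 0.43 (edgeR, adjusted p = 0.0318).

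Genes of the nuclear RNA decay machinery, which trims and removes many noncoding transcripts, were called lower after knockdown more often than higher. Of the 28 tested, 11 were lower and 1 higher in DMSO, against 16.0% lower and 16.1% higher over all genes tested, and their median log2 fold change was -0.39, against 0.02 over all genes. Under XMU-MP1 15 were lower and 1 higher after knockdown, against 18.6% lower and 17.7% higher over all genes, with a median of -0.74, against 0.04. The lower ones in DMSO included the exosome subunits EXOSC2 (-2.04), EXOSC9 (-1.88) and EXOSC8 (-1.80), the exosome adaptor ZCCHC8 (-1.61) and the nuclear exonuclease XRN2 (-0.67); the higher one was ZFC3H1 (1.05), a subunit that connects polyadenylated RNA to the exosome. With XMU-MP1 the helicase MTREX was lower in both siRNA settings, with log2 fold changes of -1.15 after knockdown and -0.64 with control siRNA. After knockdown 8 of the list were lower and 1 higher with XMU-MP1, against 7.92% and 4.19% over all genes, and with control siRNA 1 was lower and 0 higher, against 5.26% and 4.0%. Whether these differences bear on the levels of the lincRNAs was not tested.

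The promoters of 71 of the 100 lincRNAs were found by gene ID in the RefSeq table, 6 of them under another symbol, as 81 windows. The TEAD motif GGAATG, read on both strands, was in 4.94% of them, against 14% of the 35116 windows of all genes. The AP-1 motif TGACTCA, read on both strands (TGAGTCA is its reverse complement), was in 11.1%, against 4.95% of all windows, and the E box CACGTG, its own reverse complement, in 6.17%, against 7.26%. None of the 9 windows of lincRNAs higher and of the 9 of lincRNAs lower after knockdown in DMSO held the TEAD or the AP-1 motif. Among the lincRNAs of the set that are named here the matches were GGAATG in LINC00673, the TEAD motif on either strand in LINC02615, TGAGTCA in LINC00963 and CACGTG in LINC01278. The motifs do not overlap one another, and a match is a match of letters only.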

How the data were processed

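Polyadenylated RNA of 12 MCF10A libraries was sequenced stranded and paired-end, per the labels. Cutadapt, FastQC, HISAT2, StringTie, edgeR and the build GRCh38.p13 are named in the submitters' processing notes, which give no version. The deposited table gives, per the file headers, unscaled whole-number counts and the authors' FPKM for each library (24 columns, all used), with 1e-04 as the FPKM of a count of 0; how the authors counted reads is not given in the sources used here. Total counts ran from 8243351 to 67953633 per library, and a count of 0 was read as a floor of 3 counts per library. Intervals at the 95% level and floors cover counting error only.

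All counts were fitted in R 4.3.3 with edgeR 4.0.16 (filterByExpr, 18143 genes tested, TMM, quasi-likelihood test over 4 group means, 8 residual degrees of freedom), with Benjamini-Hochberg adjustment over all genes tested and a threshold of 0.05. The SE of an estimate was derived from its F statistic. Alternatives were no filter, the 50-count filter for all genes, RLE scaling, DESeq2 1.42.0, the compared groups alone, a replicate block and leaving out each library. Recovery of known changes was tested on simulated counts.

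The 100 members and the gene lists were chosen with earlier results of these data known. The named genes are, per comparison of groups, up to 8 called higher and 8 called lower lincRNAs by log2 fold change whose groups do not overlap, the 8 highest in mean FPKM, interaction calls, and YAP1 and WWTR1; genes of the lists and neighbours are named by their place, and LINC01137, LINC00205, LINC01184 and LINC00941 were picked after their values were seen. Promoters are RefSeq's (GRCh38.p14), exons GENCODE v29's. Figures used Python 3.11.15 and matplotlib 3.10.9.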

Additional observations from a re-analysis of the deposited data

How the results depend on the processing

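Over 3277 recomputed values of 185 results for named genes, 3099 kept their direction and side of the threshold, 126 were no longer past it, 52 passed it newly and 0 reversed; of 59 calls of named genes, 36 were lost in no alternative. Among the counts of called lincRNAs, those that moved by more than 1.5 times were as follows. Without the filter on low counts, XMU-MP1 with control siRNA called 3 higher. DESeq2 called 25 higher after knockdown in DMSO, 13 lower with XMU-MP1 and control siRNA, 7 lower with XMU-MP1 after knockdown, and 6 higher and 1 lower in the interaction; it gave no adjusted p for LINC00052. Fitting the compared groups alone called 16 lower with XMU-MP1 and control siRNA, and 4 higher and 1 lower with XMU-MP1 after knockdown. A count minimum of 20 gave 173 lincRNAs. The causes were not tested.

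Leaving out 1 library gave 11 to 21 higher and 6 to 15 lower lincRNAs after knockdown in DMSO, 21 to 31 higher and 7 to 15 lower after knockdown under XMU-MP1, 1 to 6 higher and 1 to 8 lower with XMU-MP1 and control siRNA, 6 to 8 higher and 1 to 5 lower with XMU-MP1 after knockdown, and 0 to 1 in each direction of the interaction. The lower count after knockdown in DMSO moved by more than 1.5 times without siC_DMSO a (6), b (7) or c (7) or siYT_DMSO a (7) or b (6), and that under XMU-MP1 without siYT_XMU a (15). With XMU-MP1 and control siRNA, the higher count was 1 without siC_DMSO b, siC_DMSO c or siC_XMU c, 2 without siC_XMU b and 3 without siC_DMSO a, siC_XMU a, siYT_XMU a or any siYT_DMSO library, and the lower count was 1 or 2 without any siC_DMSO or siC_XMU library, siYT_DMSO b or siYT_XMU a and 8 without siYT_XMU c. With XMU-MP1 after knockdown the lower count was 1 without siC_XMU b, siYT_DMSO b, siYT_DMSO c or siYT_XMU c and 5 without siYT_XMU a. Without the shallow library siYT_XMU c, all 27, 35 and 9 calls of the first 3 comparisons were kept, and 7 of 9 with XMU-MP1 after knockdown.

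Libraries with the same letter did not deviate together, with 2 of 18 correlations above 0.1, so the letters were not taken as pairs. A replicate block on the letters gave 14 higher and 13 lower after knockdown in DMSO, 29 and 9 under XMU-MP1, 4 and 3 with XMU-MP1 and control siRNA, 7 and 2 after knockdown, and 0 in the interaction. The depth of siYT_XMU c limits it: 3 counts there are 0.622 CPM, against 0.0382 to 0.125 CPM elsewhere.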
